A study of Homo sapiens with 6 samples.

Results

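The thioredoxin and peroxiredoxin system was followed in 786-O cells, a long-established human line from a clear cell renal carcinoma, with and without long-term copper. The 10 genes were chosen by symbol from the deposited count table of 25992 genes: TXN, TXNRD1, SRXN1, TXNIP and the 6 peroxiredoxins PRDX1 to PRDX6. All 10 were in the table, and all 10 passed the filter on low counts. The copper group had 3 libraries from cells kept in medium whose serum had been loaded with copper sulfate, and the control group had 3 libraries from cells given serum handled alike without copper. Both groups carried the same cell line, labelled wild type, in the same medium with serum. By its label, copper replicate 1 received 30 uM, replicate 2 received 31 uM and replicate 3 received 32 uM, while the series text names a single dose of 30 uM, and the 3 were treated as 1 group. The labels do not say that the libraries came from separately adapted cultures, so the tests measure the spread between these libraries, which may be technical. They come from 1 cell line, and fewer cells and less RNA per cell cannot be told apart in such bulk RNA.

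Thioredoxin is a small protein with a pair of active cysteines that reduces disulfides in other proteins, and thioredoxin reductase recharges it with electrons from NADPH. Peroxiredoxins are abundant enzymes that break down hydrogen peroxide with a reactive cysteine, and most of them are then reduced by thioredoxin. Several genes of the system are known targets of NRF2, the transcription factor that answers oxidative stress, and copper is a redox-active metal.

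The libraries held between 16301772 and 25079913 counts. Levels are given as CPM, counts scaled by the TMM library size. All 7 markers fixed for the line were detected, with PAX8 at 123 to 147 CPM and VIM at 2763 to 3788 CPM, while 8 markers of blood, immune and endothelial cells summed to between 0.196 and 0.576 CPM, with 2 to 5 of the 8 at a count of 0 in each library. Replicate 3 of both groups stood apart from replicates 1 and 2 on the first principal component, which carried 57.9% of the variance of log2 CPM. Copper replicate 3 lay farthest out, at 41.2, against 17.6 for control replicate 3 and -17.6 to -11.7 for the other 4 libraries. Values of the 10 genes are therefore given for each library.

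Promoter sequence is shown for TXNRD1 and TXNIP, the reductase and the inhibitor of thioredoxin, a choice made after their sequences and values had been seen. Windows were taken from RefSeq on GRCh38.p14, from 250 bases before to 50 bases after each annotated start, and 8 of the 10 genes matched with 11 windows. PRDX1 and PRDX6 had no entry. The core of the antioxidant response element, the site that NRF2 binds, was searched as TGACNNNGC on both strands. Both TXNRD1 windows held it, and no window of the other 7 genes did. Of all 35116 windows of the same length, 13.3% held it. The first 2 sequences below are the stretches before the TXNRD1 starts, with the core in capitals. In the upstream window the core reads 5′ to 3′ and begins 99 bases before the start, and in the downstream window it lies on the opposite strand and begins 102 bases before it. The upstream window has 1 further match that crosses the start and is not shown. The third sequence is from TXNIP. Its capitals mark a pair of boxes of the form CACGNG with 5 bases between them, the kind of site that carbohydrate-sensing factors bind. The pair begins 88 bases before the upstream start of TXNIP. This pair was looked for after the TXNIP sequence had been seen, and 27 of the 35116 windows (0.0769%) held such a pair. The window of the downstream TXNIP start did not hold the pair. No window of the TXNIP relatives ARRDC1, ARRDC2, ARRDC3 and ARRDC4 held it. A match of letters is a description of the window and not a measured binding site.
TXNRD1, upstream start, chr12:104215630-104215738, plus strand: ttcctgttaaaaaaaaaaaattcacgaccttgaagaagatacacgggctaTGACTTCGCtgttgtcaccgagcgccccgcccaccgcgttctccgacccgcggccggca
TXNRD1, downstream start, chr12:104286880-104286988, plus strand: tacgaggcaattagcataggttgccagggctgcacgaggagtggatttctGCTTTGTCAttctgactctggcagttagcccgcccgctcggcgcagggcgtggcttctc
TXNIP, chr1:145996601-145996717, minus strand: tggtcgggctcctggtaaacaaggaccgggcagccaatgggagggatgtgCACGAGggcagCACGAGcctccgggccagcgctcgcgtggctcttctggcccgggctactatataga

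At an adjusted p under 0.05, 0 of the 10 genes were called. The fitted differences were small. They ran from 0.03 for PRDX3 to 0.32 for TXN on the log2 scale, with a median of 0.14, against 0.0052 over all 12944 genes tested. All 10 were above 0, where 51.4% of all genes were. The count and the median rest largely on copper replicate 3. Without that library 5 of the 10 differences were below 0 and the median was 0.03, in a fit that kept control replicate 3. In replicates 1 and 2 alone the median was 0.05, and only PRDX2, PRDX5 and PRDX6 were below 0. Within replicate numbers 1, 2 and 3 the copper library was higher for 5, 7 and 8 of the 10 genes, where 50.5%, 51.5% and 50.2% of all genes were higher. TXN and PRDX1 were the 2 genes that were higher in copper in all 3 comparisons. The share of all genes that were higher in all 3 was not computed, so nothing is concluded from this count.

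The test was edgeR's quasi-likelihood test, with p-values adjusted over all genes by the Benjamini-Hochberg method. It called 0 genes of the whole table, so the background of calls is 0%, and DESeq2 called 27, or 0.209%, with 0 of the 10 genes among them. With replicate number as a block, 22 genes were called (0.170%), again with 0 of the 10. At an unadjusted p under 0.05, 1 of the 10 genes passed, TXN, against 3.52% of all genes without the block. With the block it was again TXN alone, against 8.41%. The groups did not overlap for 1 of the 10, TXN, which was higher in copper, where 5.45% of all genes were higher and 5.35% lower in this way.

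**Figure D1:**
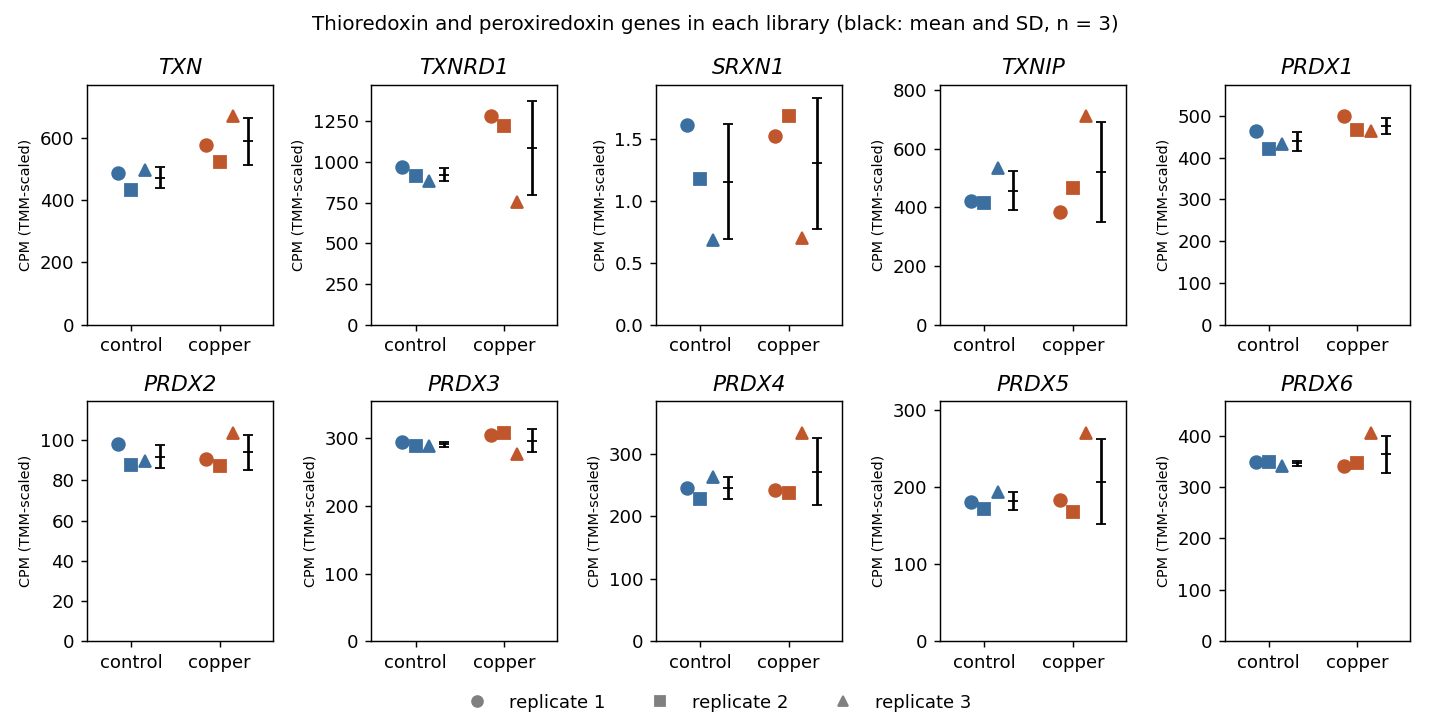
Levels of the 10 genes in each library, in TMM-scaled CPM on linear axes that start at 0, with control in blue and copper in orange, one symbol per replicate number, and the mean and SD of 3 libraries in black. TXN is the one gene whose 3 copper libraries all lie above its 3 control libraries, and copper replicate 3 is the lowest library for TXNRD1 and PRDX3 and the highest for TXN, TXNIP, PRDX2, PRDX4, PRDX5 and PRDX6.

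TXN, the cytosolic thioredoxin (Entrez 7295; chromosome 9, 110243810 to 110256507, minus strand), had 576, 521 and 670 CPM in copper replicates 1, 2 and 3 and 487, 433 and 498 CPM in control. Every copper library was above every control library, and the lowest copper value was close to the highest control value. The means were 589 ± 75.2 and 473 ± 34.9 CPM (SD, n = 3), and the fitted difference was 0.32 on the log2 scale (SE 0.12, 95% interval 0.03 to 0.60), or 1.25-fold. The adjusted p by edgeR was 1.00, and the replicate block gave 0.334. Replicate by replicate, the log2 difference was 0.24, 0.27 and 0.43. Without copper replicate 3 the log2 fold change was 0.21. The annotation used here (GENCODE 29) names 7 processed pseudogenes of TXN, and how the authors' counting treated reads that match several places is not given in the sources used here.

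TXNRD1, the cytosolic thioredoxin reductase (Entrez 7296; chromosome 12, 104215779 to 104350307, plus strand), is a selenoprotein that carries electrons from NADPH to thioredoxin. It had 1282, 1220 and 754 CPM in copper replicates 1, 2 and 3 and 968, 916 and 886 CPM in control. Copper replicates 1 and 2 were above all 3 control libraries, and copper replicate 3 was below all 3. The means were 1085 ± 289 and 923 ± 41.5 CPM (SD, n = 3), and the spread among the copper libraries was larger than the difference between the groups.

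For TXNRD1 the fitted log2 difference was 0.23 (SE 0.19, 95% interval -0.22 to 0.69; edgeR adjusted p 1.00). Within replicates 1, 2 and 3 it was 0.41, 0.41 and -0.23. Without copper replicate 3 the log2 fold change was 0.44 (adjusted p 0.102). In replicates 1 and 2 alone it was 0.41 (SE 0.06), and there edgeR called TXNRD1 at an adjusted p of 0.0133. It was the only one of the 10 genes called, against 0.856% of all genes. This subset left out the pair with the opposite difference, so the call holds for the subset only. Over all libraries edgeR with the replicate block gave an adjusted p of 0.657. With the block, replicates 1 and 2 alone gave calls for 2 of the 10, TXNRD1 and TXN, against 7.03% of all genes. Replicate 3 has 1 library per group and allows no test by itself, and whether its copper difference departs from that of the others was not tested. Both promoter stretches printed above belong to this gene, and gene-level counts do not separate the 2 starts. In GENCODE 29 the protein-coding gene EID3 and the pseudogene RPL18AP3 lie within TXNRD1 on the same strand, and an antisense gene lies on the other, so the assignment of shared reads is uncertain here too.

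The ratio of TXNRD1 to TXN in CPM was 2.23, 2.34 and 1.13 in copper replicates 1, 2 and 3 and 1.99, 2.11 and 1.78 in control. Copper replicate 3 had the lowest ratio of all 6 libraries, with TXN at its highest and TXNRD1 at its lowest.

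TXNIP, the arrestin-like protein that binds reduced thioredoxin, inhibits it and also restrains glucose uptake (Entrez 10628; chromosome 1, 145992442 to 145996579, minus strand), had 382, 467 and 710 CPM in copper replicates 1, 2 and 3 and 420, 415 and 533 CPM in control. Replicate 3 was the highest library in both groups, and copper replicate 1 was the lowest of all. The means were 520 ± 170 and 456 ± 66.4 CPM (SD, n = 3). The fitted log2 difference of 0.19 (SE 0.23, 95% interval -0.34 to 0.72) was within the spread between libraries.

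Within replicates 1, 2 and 3 TXNIP differed by -0.14, 0.17 and 0.42 on the log2 scale, and without copper replicate 3 its log2 fold change was -0.10. That fit kept control replicate 3, the highest control library. In replicates 1 and 2 alone the fitted value was 0.02 (SE 0.08). The ratio of TXNIP to TXN in CPM was 0.664, 0.896 and 1.06 in copper and 0.862, 0.958 and 1.07 in control. In each replicate the copper ratio was the lower of the pair, but the groups overlapped, at 0.873 ± 0.199 in copper and 0.963 ± 0.104 in control (SD, n = 3).

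**Figure D2:**
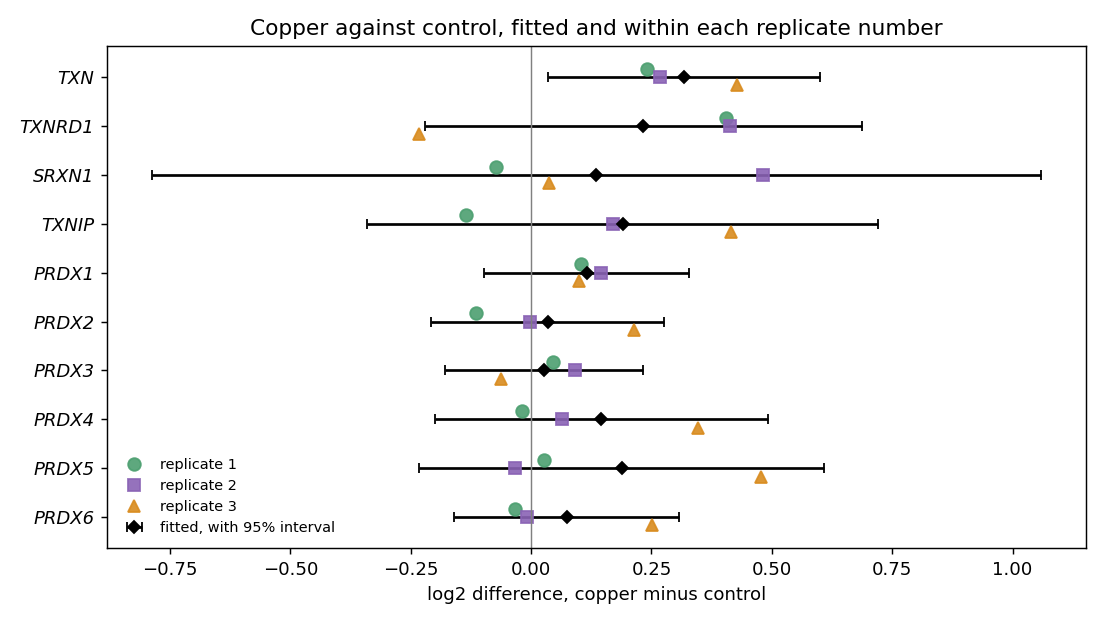
Log2 difference of copper minus control for each gene, fitted over all 6 libraries with its 95% interval (black diamonds and bars) and within replicates 1, 2 and 3 (coloured symbols). The interval leaves out 0 for TXN alone, before adjustment over all genes, and TXNRD1 runs from 0.41 in replicates 1 and 2 to -0.23 in replicate 3.

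The cytosolic peroxiredoxins differed little. PRDX1, which uses thioredoxin to reduce peroxide and is a known NRF2 target (Entrez 5052; chromosome 1, 45511051 to 45521884, minus strand), had 499, 465 and 463 CPM in copper and 464, 420 and 433 CPM in control. The groups overlapped by a margin of about 1 CPM, between copper replicate 3 at 463.3 and control replicate 1 at 464.5. Its log2 fold change was 0.12 (SE 0.09, 95% interval -0.10 to 0.33), and it was alike across replicates at 0.10, 0.15 and 0.10.

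PRDX2, its close cytosolic relative that is best known from red blood cells (Entrez 7001; chromosome 19, 12796823 to 12801800, minus strand), had 90.7, 87.3 and 104 CPM in copper and 98.2, 87.5 and 89.4 CPM in control. Copper replicates 1 and 2 lay within or below the control range. Its log2 fold change was 0.03 (SE 0.10, 95% interval -0.21 to 0.28), and without copper replicate 3 it was -0.04. PRDX2 also overlaps HOOK2 and an antisense gene in GENCODE 29, and although the library kit marks strand, its use in the authors' counting is not given in the sources used here, so its counts are less certain. PRDX1 likewise overlaps MMACHC on the other strand.

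PRDX3, the peroxiredoxin of mitochondria (Entrez 10935; chromosome 10, 119167720 to 119178812, minus strand), was the steadiest of the 10 genes, with a coefficient of variation of 3.93% over the 6 libraries. It had 305, 308 and 277 CPM in copper and 295, 289 and 289 CPM in control. Copper replicates 1 and 2 lay above the control libraries and copper replicate 3 below them, the same order as in TXNRD1. The log2 fold change was 0.03 (SE 0.09), with a 95% interval from -0.18 to 0.23, which on the linear scale is 0.883-fold to 1.17-fold. Without copper replicate 2 it was -0.0065.

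PRDX4, PRDX5 and PRDX6 were each highest in copper replicate 3, and their other 5 libraries lay closer together. PRDX4 works in the endoplasmic reticulum, where peroxide arises as proteins fold (Entrez 10549; chromosome X, 23667493 to 23686397, plus strand). It had 243, 238 and 334 CPM in copper and 246, 228 and 263 CPM in control. Within replicates 1, 2 and 3 the difference was -0.02, 0.06 and 0.35 on the log2 scale.

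PRDX5, found in mitochondria, peroxisomes and cytosol (Entrez 25824; chromosome 11, 64318121 to 64321811, plus strand), had 183, 167 and 270 CPM in copper and 180, 171 and 194 CPM in control. Its differences in replicates 1, 2 and 3 were 0.03, -0.03 and 0.48. PRDX6, which takes its electrons from glutathione rather than thioredoxin (Entrez 9588; chromosome 1, 173477335 to 173488815, plus strand), had 340, 346 and 406 CPM in copper and 348, 348 and 341 CPM in control.

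The differences of PRDX6 were -0.03, -0.0076 and 0.25. The fitted log2 fold changes were 0.15 for PRDX4, 0.19 for PRDX5 and 0.07 for PRDX6, with standard errors of 0.15, 0.18 and 0.10. Without copper replicate 3 they were -0.03, -0.05 and -0.01, in a fit that kept control replicate 3. In replicates 1 and 2 alone they were 0.02, -0.0032 and -0.02, so PRDX4 kept its positive sign there. The 6 peroxiredoxins summed to 1661, 1612 and 1853 CPM in copper and to 1632, 1544 and 1608 CPM in control. The sum in copper replicate 1 was above all control libraries by a small margin, that of copper replicate 2 lay within the control range, and copper replicate 3 stood clear of both.

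SRXN1, the ATP-dependent enzyme that restores peroxiredoxins overoxidised by peroxide (Entrez 140809; chromosome 20, 646624 to 653200, minus strand), had very few counts. It had 25, 30 and 13 counts in copper and 40, 24 and 13 in control, or 1.52, 1.68 and 0.701 CPM and 1.61, 1.18 and 0.681 CPM. Replicate 3 was the lowest library in both groups. The log2 fold change was 0.14 (SE 0.40), and its 95% interval from -0.79 to 1.06 allows anything from 0.579-fold to 2.08-fold, so a difference was not detectable at this depth. Leaving out 1 library moved it between -0.10 and 0.43. In GENCODE 29 the protein-coding gene AL121758.1 lies across SRXN1 on the same strand, from 646626 to 675800. How the authors' counting assigned reads shared by overlapping genes is not given in the sources used here, so the low count cannot be read as a low level of the transcript.

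**Figure D3:**
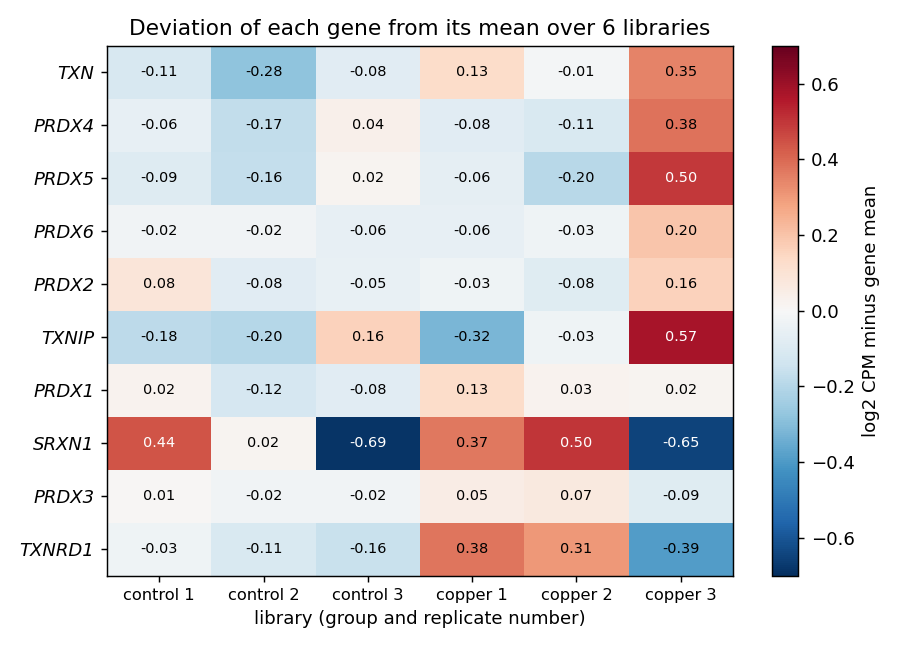
Deviation of each gene's log2 CPM from its mean over the 6 libraries, with red above and blue below the mean and the value in each cell. In copper replicate 3 the genes part in opposite directions, with TXNIP at 0.57, PRDX5 at 0.50 and PRDX4 at 0.38 above their means and TXNRD1 at -0.39 and SRXN1 at -0.65 below. In control replicate 3 these genes had the same signs, with SRXN1 at -0.69, TXNIP at 0.16 and TXNRD1 at -0.16. PRDX5 and PRDX4 were at only 0.02 and 0.04 there. SRXN1 had 13 counts in each of these libraries.

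Between genes, levels were compared per kilobase of the merged exons of protein-coding transcripts in GENCODE 29 (RPKM). In control, TXN was the highest at 544 ± 40.1 RPKM, followed by PRDX1 at 351 ± 18.2 (SD, n = 3). PRDX5 at 203 ± 12.9 and PRDX6 at 197 ± 2.54 came next and did not differ beyond their spread. TXNRD1 at 183 ± 8.22, PRDX3 at 183 ± 2.24 and PRDX4 at 180 ± 12.9 could not be ordered. TXNIP followed at 142 ± 20.7 and PRDX2 at 92.9 ± 5.76. The counts assigned to SRXN1 gave 0.428 ± 0.172 RPKM, and owing to the overlapping gene this value was not placed in the order. TXN and PRDX1 were also first and second in copper, at 678 ± 86.6 and 380 ± 16.1 RPKM. PRDX2 was again the lowest of the genes placed in the order, at 95.1 ± 8.76 RPKM. TXNIP in copper was at 162 ± 53.0 RPKM, from 119 to 221. It overlapped TXNRD1, PRDX3, PRDX4, PRDX5 and PRDX6 and could not be ordered against them there. A length chosen from another set of transcripts would change these levels but not the differences between libraries.

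Related genes were taken from 7 lists with 48 genes, of which 44 were tested. None of the 44 was called, with 27 log2 fold changes above and 17 below 0 and a median of 0.08. At an unadjusted p under 0.05 there were 2, MSRB1 and MAP3K5, where 3.52% of all genes were. With the replicate block there were 7 of the 44, where 8.41% of all genes were, and none was called. GPX2, GPX7, SESN3 and MLXIPL had too few counts to be tested. In replicates 1 and 2 alone 0 of the 44 were called. The groups did not overlap for 1 of the 44 with copper higher, MSRB1, where 5.45% of all genes were. They did not overlap for 3 with copper lower, MAP3K5, ARRDC3 and GPX8, where 5.35% of all genes were.

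Among 14 other thioredoxins, thioredoxin reductases and proteins of the same fold, 7 were higher and 7 lower, with a median of -0.00029, which ranged from -0.02 to 0.02 as single libraries were left out. The member with the smallest p was TXNDC16, at -0.22 (SE 0.15). Its differences in replicates 1, 2 and 3 were -0.07, 0.0069 and -0.63, and in replicates 1 and 2 alone the fitted value was -0.03. The mitochondrial pair TXN2 and TXNRD2, which serves PRDX3, had log2 fold changes of 0.12 (SE 0.13) and -0.08 (SE 0.25), and in replicates 1 and 2 alone these were -0.03 and -0.32. TXN2 differed by -0.07, 0.03 and 0.38 in replicates 1, 2 and 3. The TXNRD2 difference was -0.36 and -0.29 in replicates 1 and 2 and 0.22 in replicate 3, the opposite order to TXNRD1. It had 25.7, 27.3 and 49.2 CPM in copper and 32.9, 33.4 and 42.2 CPM in control, with replicate 3 highest in both groups.

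Of the 5 glutaredoxins and glutathione reductase, which form the parallel pathway based on glutathione, 4 were higher, with a median of 0.16, which was 0.07 without copper replicate 1. GSR, the glutathione reductase, had 87.3, 73.9 and 64.0 CPM in copper and 64.1, 58.6 and 60.4 CPM in control. The groups overlapped narrowly, between copper replicate 3 and control replicate 1, and the difference in replicates 1, 2 and 3 was 0.44, 0.33 and 0.08. The fitted difference for GSR was 0.30 (SE 0.13; edgeR adjusted p 1.00), and 0.29 (SE 0.10; edgeR adjusted p 0.500) with the replicate block. In replicates 1 and 2 alone it was 0.39 (SE 0.08; edgeR adjusted p 0.0699), so GSR was not called there either.

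Of 7 enzymes that take electrons from thioredoxin, 4 were higher and 3 lower, with a median of 0.09, which was -0.03 without copper replicate 2 and 0.04 without control replicate 3. MSRB1, a selenoprotein that repairs oxidised methionine, had 34.4, 32.5 and 36.3 CPM in copper and 28.3, 31.0 and 26.0 CPM in control. The groups did not overlap, and the fitted difference was 0.27 (SE 0.11; edgeR adjusted p 1.00), or 0.17 in replicates 1 and 2 alone. RRM2, a subunit of ribonucleotide reductase, which makes the building blocks of DNA, had a log2 fold change of -0.19 (SE 0.10).

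Of 8 tested enzymes that remove superoxide or peroxide outside the peroxiredoxins, 4 were higher and 4 lower, with a median of 0.03. It was -0.03 without control replicate 3, 0.09 without copper replicate 3 and 0.10 without control replicate 1. The largest value was that of SOD3, the secreted copper and zinc superoxide dismutase, at 0.89 (SE 0.40), from only 1.04, 2.69 and 3.35 CPM in copper and 1.29, 1.47 and 0.943 CPM in control. Its copper replicate 1 lay within the control range. The SOD3 differences in replicates 1, 2 and 3 were -0.29, 0.83 and 1.72, and in replicates 1 and 2 alone the fitted value was 0.43 (SE 0.37). SOD1, the cytosolic copper and zinc enzyme, had a log2 fold change of 0.13 (SE 0.09), or 0.09 in replicates 1 and 2 alone, and that of catalase (CAT) was 0.07 (SE 0.12).

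Among TXNIP relatives and its regulators, 5 of 6 tested genes were higher, with a median of 0.07. Its sign turned on 1 library, at -0.0054 without copper replicate 3, and it was 0.18 without copper replicate 1. ARRDC2 had the smallest p of them, at 0.26 (SE 0.17), or 0.15 in replicates 1 and 2 alone. ARRDC4, which like TXNIP is a known target of the glucose-sensing factor encoded by MLXIP, had a log2 fold change of 0.12 (SE 0.12), and ARRDC3 one of -0.13 (SE 0.09), which was -0.06 in replicates 1 and 2 alone. MLXIP itself was at 0.02 (SE 0.19), and at -0.10 in those replicates. Both tested sestrins, proteins of the stress response once linked to peroxiredoxin repair, were higher, with SESN2 at 0.21 (SE 0.15). MAP3K5, the kinase ASK1 that reduced thioredoxin holds inactive, had 13.3, 13.1 and 12.5 CPM in copper and 15.97, 15.1 and 17.5 CPM in control. The groups did not overlap, and the fitted difference was -0.32 (SE 0.11; edgeR adjusted p 1.00, or 0.496 in the blocked fit).

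**Figure D4:**
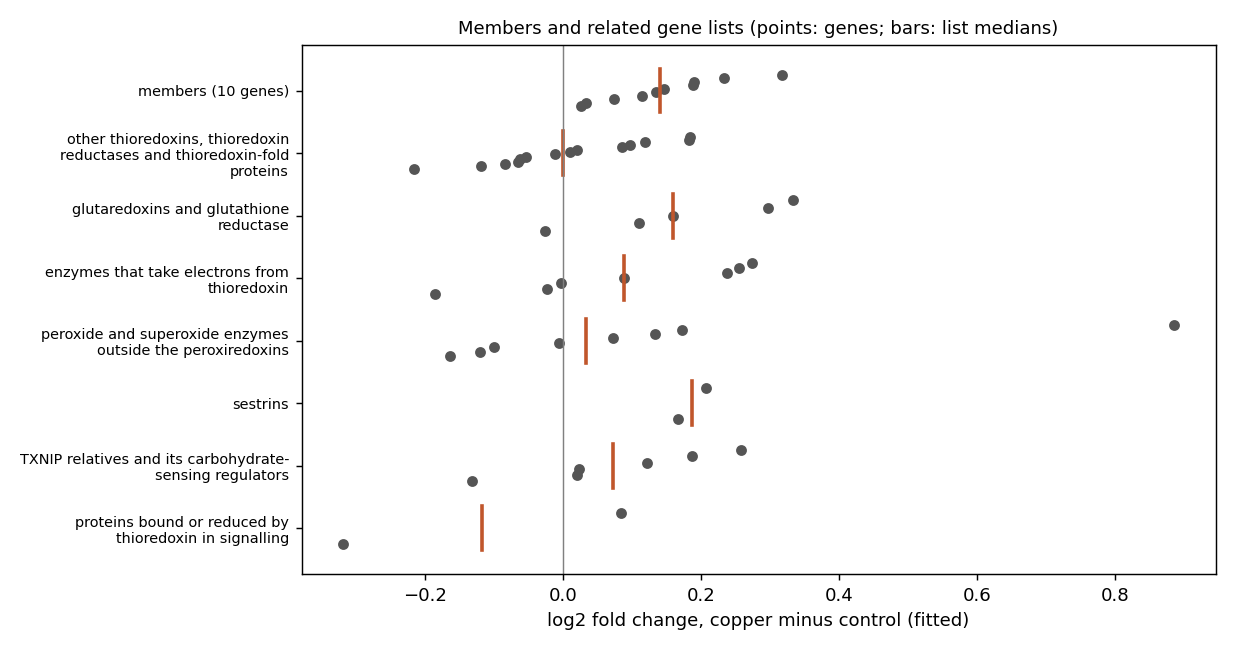
Fitted log2 fold changes of copper against control for the 10 genes and for the 44 tested genes of the 7 related lists, one point per gene, with the list median as an orange bar. The medians run from -0.12 for MAP3K5 and APEX1 to 0.19 for the sestrins, lists with 2 tested genes each, and no point was called.

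The genes whose pattern over the 6 libraries was most like that of 3 members were sought among 9249 genes averaging 10 CPM or more, by Pearson correlation of log2 CPM. For TXNRD1 they were SLC35G1, NOP14 and RPAP3 (r from 0.992 to 0.997), for TXNIP they included MOB3A and TM4SF1 (r of 0.998 and 0.997), and for SRXN1 they were MRPL35, AEN and SCO1 (r from 0.996 to 0.999). With 6 libraries and so many genes, high values are common. The libraries share the separation of replicate 3, so the correlations are a description.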

How the data were processed

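RNA from 6 libraries of 786-O cells was measured, 3 per group. The authors deposited raw read counts per gene, 1 column per library. Per the submitters' processing notes, STAR, FastQC and edgeR were used with GRCh38, and the counting program and its use of strand are not given in the sources used here. The 5 genes that carry no symbol, with 0.000814% of the counts, were removed. Positions are those of the table, with 1 added to its starts.

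The tests ran under R 4.3.3 and used edgeR 4.0.16 (filterByExpr, minimum count 10 and total 15; TMM; robust quasi-likelihood test; prior count 2; Benjamini-Hochberg over all 12944 genes, called under 0.05). DESeq2 1.42.0 and limma-voom (limma 3.58.1) were alternatives, as were other scalings and filters, the replicate block and fits without each library. Scripts were tested on simulated counts. CPM are counts scaled to TMM library size, and RPKM are these per kilobase. Standard errors are the log2 fold change over the root of its F statistic, and 95% intervals, which are not adjusted, use edgeR's degrees of freedom.

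Replicate numbers come from the labels, with no shared day or culture named. Deviations from group means of same-numbered libraries correlated at 0.46, 0.40 and 0.65 across genes, all over the minimum of 0.1, so blocked values are given where they bear on a call. The difference of replicates 1 and 2 correlated between groups at only 0.15. Within groups, libraries differed by at least 5.04 times the sampling noise (chi-square per degree of freedom) and were counted separately. Named related genes are the one with the smallest p of each list. Added after their values were seen were TXN2, TXNRD2, RRM2, SOD1, CAT, GPX8, ARRDC3, ARRDC4 and MLXIP. The members and lists were chosen with earlier results of these data known. Protein sequences were not used here. One gene that the rule on likeness to TXNIP names is not reported here.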

Additional observations from a re-analysis of the deposited data

How the results depend on the processing

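Of 200 values of the 10 genes under other settings, 183 kept their direction and call, 3 became called and 14 changed sign. The number of the 10 genes called stayed at 0 except in replicates 1 and 2 alone (1, TXNRD1) and in those replicates with the replicate block (2, TXN and TXNRD1). The block changed no other call of the 10. The count over all genes was 0 with edgeR and with limma-voom. Unfiltered counts gave 12, DESeq2 gave 27 and the replicate block gave 22 (also under RLE scaling). It was 58 with the block in DESeq2, 111 in replicates 1 and 2 alone and 912 in those with the block. Leaving out 1 library gave 0 to 15, with 15 without copper replicate 3. The block with DESeq2, with RLE and in replicates 1 and 2 was chosen after seeing the data.

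In replicates 1 and 2 alone, PRDX2 (-0.0629), PRDX5 (-0.00318) and PRDX6 (-0.0213) changed sign, and with the block there they were at -0.0601, -0.00317 and -0.0214. Over the fits that each left out 1 library, values ranged from -0.103 to 0.429 for SRXN1, -0.102 to 0.367 for TXNIP, -0.0441 to 0.0817 for PRDX2, -0.00654 to 0.0733 for PRDX3, -0.0305 to 0.228 for PRDX4, -0.0516 to 0.316 for PRDX5 and -0.0106 to 0.119 for PRDX6. The lows of TXNIP, PRDX2, PRDX4, PRDX5 and PRDX6 came without copper replicate 3, that of PRDX3 without copper replicate 2, and that of SRXN1 without control replicate 3 (-0.0848 without copper replicate 2). TXN stayed between 0.214 and 0.393, TXNRD1 between 0.0942 and 0.438 and PRDX1 between 0.0776 and 0.153. No scaling changed the sign of any of the 10, and the all-gene median lay between 0.00296 and 0.0325 across scalings. Of 160 list medians under other settings, 24 moved by more than the SD of that list's medians in replicates 1, 2 and 3. This SD is small where those medians lie close together, as for the glutaredoxins and glutathione reductase (0.113, 0.109 and 0.107). The count is therefore no measure of how steady a list is. The median of the 10 genes counted as unmoved at 0.03 without copper replicate 3, against 0.14 in the main fit. Depth limits SRXN1 most.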

Other observations

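The E-box CACGTG was found in the promoter windows of PRDX3 and PRDX4, once each, and in none of the other 6 members with a window, where 7.26% of all 35116 windows held it. The fitted log2 fold changes of PRDX3 and PRDX4 were 0.03 and 0.15, and they lay on opposite sides of their means in copper replicate 3, at -0.09 and 0.38.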
